A study of Mus musculus with 7 samples.

Results

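Genes of the complement, coagulation and fibrinolysis systems were examined in mouse carotid artery, in offspring of reciprocal crosses between ApoE-null and wild-type parents. The 36 genes were chosen by name, and each was represented by the probe set that carries its symbol alone and has the highest mean signal over the 7 arrays. By this rule 32 of the 36 had a probe set, of 18193 genes so represented on the array. No value is given for C3, C7 and Serpine2, which no annotated probe set names, or for C4b, which shares its probe set with C4a. All 7 samples came from offspring heterozygous for the ApoE null allele (ApoE-/+). In 4 of them the mother was ApoE-/- and hypercholesterolemic and the father was wild type. In the other 3 the mother was wild type and normocholesterolemic and the father was ApoE-/-. The comparison addressed whether the parent with high plasma cholesterol makes a difference to the offspring, and both parents differ between the crosses, so a maternal and a paternal effect cannot be told apart. Age, sex, litter and batch are not given in the labels used here, and no label ties an array to an animal of its own, so p-values measure only the spread between these samples, which may be technical.

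Complement is a cascade of proteases started by antibody complexes, by lectins bound to sugars, or by spontaneous activation at surfaces, and it ends in a membrane attack complex and in small peptides that recruit leukocytes. Coagulation starts when tissue factor in the vessel wall meets factor VII of the blood, and produces thrombin and fibrin. Thrombomodulin and the protein C receptor on the endothelium, together with tissue factor pathway inhibitor, limit it. Fibrinolysis removes fibrin through plasmin, which tissue-type and urokinase-type activators release from plasminogen. Many of the soluble proteins are made in the liver, whereas the receptors, membrane regulators and tissue factor are made by cells of the vessel and by leukocytes.

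Values are MAS5 signals, a linear brightness of a probe set that had been scaled on each array before deposit. The highest signal among 27 probe sets for bacterial transcripts, used as a background ceiling, was at most 22.0 on any array. Smooth muscle, endothelial and fibroblast marker lists had every gene above that ceiling on all arrays (9 of 9, 9 of 9 and 8 of 8). The array of wild-type mother 2 stood apart. Its summed signal of skeletal muscle markers was 2146.3, against 205.1 to 282.2 on the other arrays, its Xist signal was 41.2, against 5174.1 to 5930.9, and its ratio of 3 prime to 5 prime Gapdh signal was 7.80, against 5.03 to 6.56. Leaving it out turned the sign of 6 of the 25 tested differences described below, those of C1ra, Cfp, Serping1, C3ar1, Thbd and Tfpi, and none of the 6 was called. Other arrays stood apart for other cells: summed ganglion and glomus markers were 4684.4 on wild-type mother 1, against 529.4 to 1679.7 on the other arrays, and summed adipocyte markers 5912.7 on wild-type mother 3, against 11880.1 to 17036.7. The crosses did not overlap for 8 of 99 marker genes, or 8.08%, against 8.02% of all probe sets tested. The marker genes were taken at any signal, whereas the probe sets tested had passed a filter on mean signal, so the sets are unlike. Ucp1 of brown fat (3146.6 to 5059.5 with an ApoE-null mother and 420.1 to 2297.1 with a wild-type mother) and the T cell genes Cd3d, Cd3e, Cd3g and Cd4 were higher with an ApoE-null mother, and Mfap5, Cnp and Uchl1 lower. The other genes of the same lists overlapped. Cd8a had 58.3 to 118.7 with an ApoE-null mother and 77.7 to 121.0 with a wild-type mother. Retn of the adipocyte list had 1682.2 to 2064.7 with an ApoE-null mother and 1384.3 to 3162.8 with a wild-type mother. Cd3e exceeded the ceiling of its array only on ApoE-null mother 2, at 23.5. Summed T and B lymphocyte markers were 154.9 to 306.2 with an ApoE-null mother and 124.3 to 199.6 with a wild-type mother, 1 of 7 lay above the ceiling on all arrays, and Cd4 and Cd79a lay at or below it on every array. The part of these cells in the results was not tested.

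None of these genes passed the test between the crosses after correction. A total of 25 genes had a mean signal above the 40th percentile of the array (23.6) and entered the test, and all 25 lay above the background ceiling on every array. In limma, fitted over 27027 probe sets on log2(signal + 2), 0 of the 25 had an adjusted p under 0.05, with adjusted p-values of 0.540 to 0.9996. Over all probe sets tested 0.0037% passed, which is 1 probe set. At an unadjusted p under 0.05 there was 1 gene of 25, or 4.0%, against 8.25% of all probe sets. The groups did not overlap for 1 gene of 25, also 4.0%, against 8.02% of all probe sets. The gene is Anxa2 in each case, and with 1 gene in each count neither share is read as differing from the background. Log2 fold changes, ApoE-null mother minus wild-type mother, were positive for 16 genes and negative for 9. They ran from -0.36 to 0.49 with a median of 0.03, where the median of all probe sets was -0.00 and 49.4% were positive.

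Intervals show how large a difference these 7 arrays could have hidden. The 95% interval of the difference lay within 2-fold in either direction for 24 of 25 genes, C6 being the exception, and within 1.5-fold for 14 of 25. Those 14 were C2, C1ra, Cfp, Serping1, Cd59a, Clu, F3, F2r, Procr, Pros1, Tfpi, Plat, Plaur and Serpinf1. For the probe set read in each of these 14, a change of 1.5-fold or more lay outside the interval. This did not hold for every probe set: C2, Cfp, Tfpi, Plat and Serpinf1 each had another tested probe set with an interval beyond 1.5-fold. Nor did it hold for every set of arrays. With an array left out, intervals of C2, C1ra, Cfp, F3, Tfpi, Plat and Plaur, among the 14, passed 1.5-fold in some fits. C1ra without wild-type mother 2 had an interval of -0.59 to 0.19. F3 had -0.02 to 0.71 without wild-type mother 1, and Plaur -0.64 to 0.21 without wild-type mother 3. The bound of 2-fold likewise holds only for the probe set read and for all 7 arrays. Masp1, Anxa2, Cfp and Cd55 each had another tested probe set with an interval beyond 2-fold. Without wild-type mother 2 the interval was -1.36 to 0.30 for Vtn and -0.36 to 1.06 for F5. Of all tested probe sets 34.0% had an interval within 1.5-fold, and of the 7107 probe sets at least as bright as the median gene of the set (378) the share was 66.1%. Spread between arrays of a cross, as the residual SD on the log2 scale, had a median of 0.23 over the 25 genes, 0.28 over all probe sets and 0.21 over the bright ones.

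**Figure D1:**
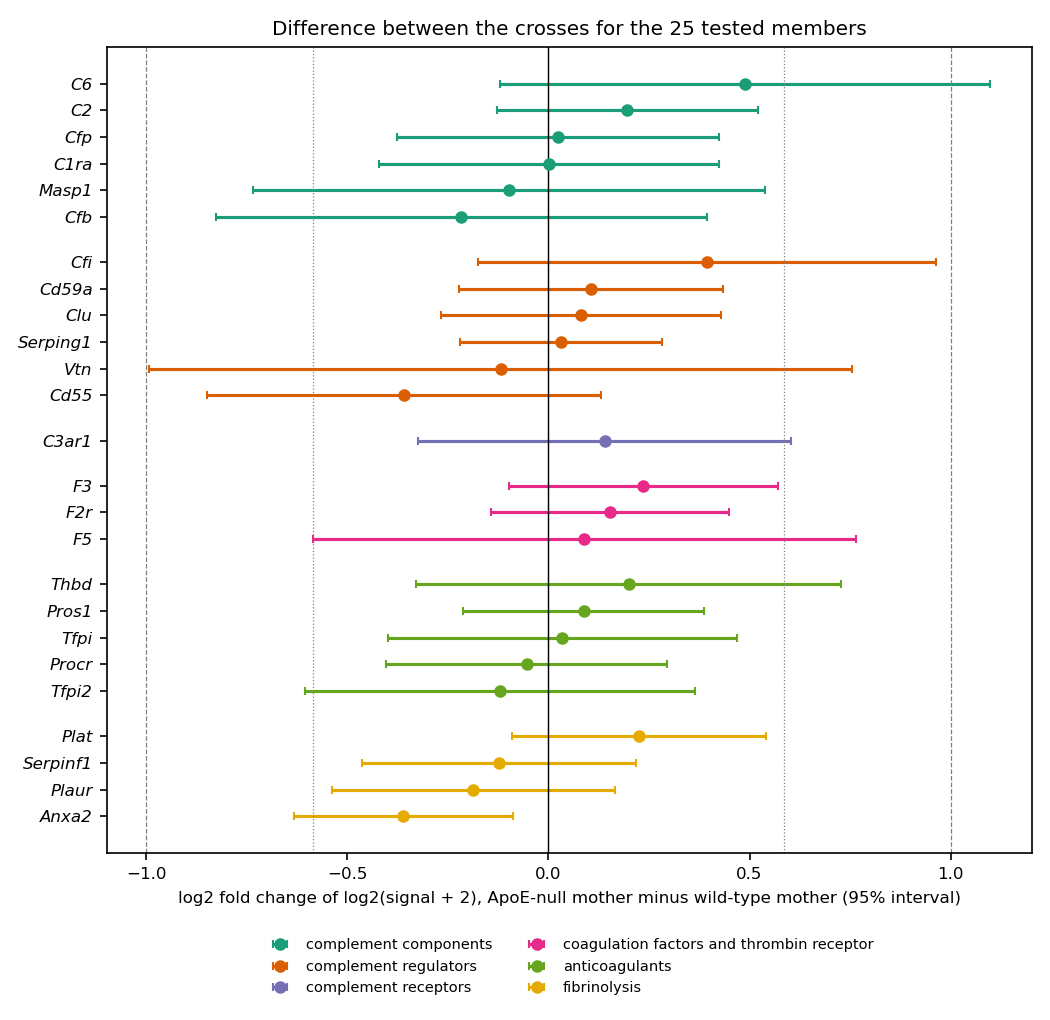
Points are log2 fold changes on the log2(signal + 2) scale, ApoE-null mother (n = 4) minus wild-type mother (n = 3), bars are 95% intervals from limma, and colours mark the role of the gene. Dotted and dashed vertical lines mark 1.5-fold and 2-fold; the interval of Anxa2 is the only 1 of 25 that leaves out 0, before any correction.

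Components of the complement cascade had 6 tested genes, 4 of them with positive and 2 with negative differences. C2 encodes the protease of the C3 convertase of the classical and lectin pathways, and its signals were 661.4, 635.9, 588.8 and 500.9 with an ApoE-null mother and 487.4, 509.2 and 558.9 with a wild-type mother. Of the ApoE-null mother arrays, 3 lay above every wild-type mother array and 1 lay among them. Means of C2 were 597 ± 70.6 with an ApoE-null mother (SD, n = 4) and 519 ± 36.6 with a wild-type mother (SD, n = 3), and the difference on the log2 scale was 0.20 (interval -0.13 to 0.52, limma adjusted p = 0.742). C6, part of the membrane attack complex, had the highest log2 fold change of the set. Its signals were 50.5, 53.6, 32.7 and 41.9 with an ApoE-null mother and 33.2, 33.7 and 25.9 with a wild-type mother. ApoE-null mother 3 lay below wild-type mothers 1 and 2, and the other 3 ApoE-null mother arrays lay above the whole wild-type mother group. On the log2 scale C6 differed by 0.49 ± 0.28 (standard error), with an interval from -0.12 to 1.10 (limma, adjusted p = 0.667).

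The remaining components had log2 differences of -0.22 to 0.02. C1ra, a gene for the C1r protease of the first complement complex, averaged 377 ± 56.8 with an ApoE-null mother (SD, n = 4) and 381 ± 87.2 with a wild-type mother (SD, n = 3). Its interval was -0.42 to 0.42. Cfp, which encodes properdin, the protein that stabilises the alternative pathway convertase, had signals of 189.2 to 237.2 with an ApoE-null mother and 171.1 to 258.5 with a wild-type mother. Cfb, the protease subunit of that convertase, was the most variable of the components, with 123.7, 144.4, 109.7 and 243.2 with an ApoE-null mother and 209.9, 125.1 and 193.7 with a wild-type mother. High and low arrays of Cfb occurred in both groups. The difference of Cfb was -0.22 on the log2 scale, and -0.45 to -0.07 when each array was left out.

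Among the regulators of complement, 4 of 6 tested genes had positive differences, with a median log2 fold change of 0.06 and adjusted p-values of 0.691 to 0.955 in limma. Clu encodes clusterin, which binds the terminal complement complex and also lipids. Its signals were 8958.9, 7854.3, 6176.5 and 7935.9 with an ApoE-null mother and 5883.1, 7527.1 and 8583.6 with a wild-type mother, so that each group spanned nearly the whole range. On the log2 scale Clu differed by 0.08, with an interval from -0.27 to 0.43 (limma, adjusted p = 0.912). Serping1, the C1 inhibitor, had the narrowest interval of the set, -0.22 to 0.28, around a log2 fold change of 0.03. It averaged 6180 ± 392 with an ApoE-null mother (SD, n = 4) and 6055 ± 590 with a wild-type mother (SD, n = 3). Cd59a, which blocks the membrane attack complex on host cells, averaged 1233 ± 140 with an ApoE-null mother (SD, n = 4) and 1149 ± 170 with a wild-type mother (SD, n = 3), a log2 difference of 0.10.

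Cfi and Cd55 had the differences furthest from 0 among the regulators, in opposite directions. Cfi, the protease that inactivates C3b and C4b, had signals of 71.8, 71.2, 56.0 and 47.6 with an ApoE-null mother and 46.7, 59.0 and 34.7 with a wild-type mother. Its log2 difference was 0.39, or 0.57 if wild-type mother 2 was left out and 0.20 if wild-type mother 3 was. Cd55, decay-accelerating factor, which takes convertases apart, had 117.7, 181.0, 201.9 and 194.8 with an ApoE-null mother and 258.1, 234.7 and 173.2 with a wild-type mother. The groups overlapped through wild-type mother 3, and the log2 difference was -0.36, with an interval from -0.85 to 0.13 (limma, adjusted p = 0.691). When each array was left out, it ran from -0.53 to -0.18. Vtn, vitronectin, which also binds the terminal complex, varied most of all 25 genes between arrays of a cross. It had signals of 26.7 to 75.9 with an ApoE-null mother and 29.4 to 74.2 with a wild-type mother.

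C3ar1 and C5ar1 encode the receptors for the peptides C3a and C5a, which attract and activate myeloid cells. C3ar1 had signals of 94.2, 93.4, 95.6 and 70.0 with an ApoE-null mother and 90.1, 63.1 and 87.8 with a wild-type mother. Each group held 1 array at 63.1 to 70.0 and the others at 87.8 to 95.6. On the log2 scale the difference was 0.14, with an interval from -0.32 to 0.60 (limma, adjusted p = 0.882), or -0.02 if wild-type mother 2 was left out. Summed signals of 10 macrophage markers were 5728.9 to 7027.7 with an ApoE-null mother and 5270.7 to 6192.1 with a wild-type mother, the lowest being wild-type mother 2, and their part in the level of C3ar1 was not tested. In a whole artery, fewer cells of a type and less RNA per cell cannot be told apart. C5ar1 did not reach the filter. It had signals of 32.2, 21.8, 18.5 and 19.3 with an ApoE-null mother and 16.8, 13.2 and 16.8 with a wild-type mother, without overlap, and lay at or below the ceiling on 1 array of each group. In a limma fit without the filter the log2 difference was 0.48 ± 0.37 (standard error, adjusted p = 0.824).

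**Figure D2:**
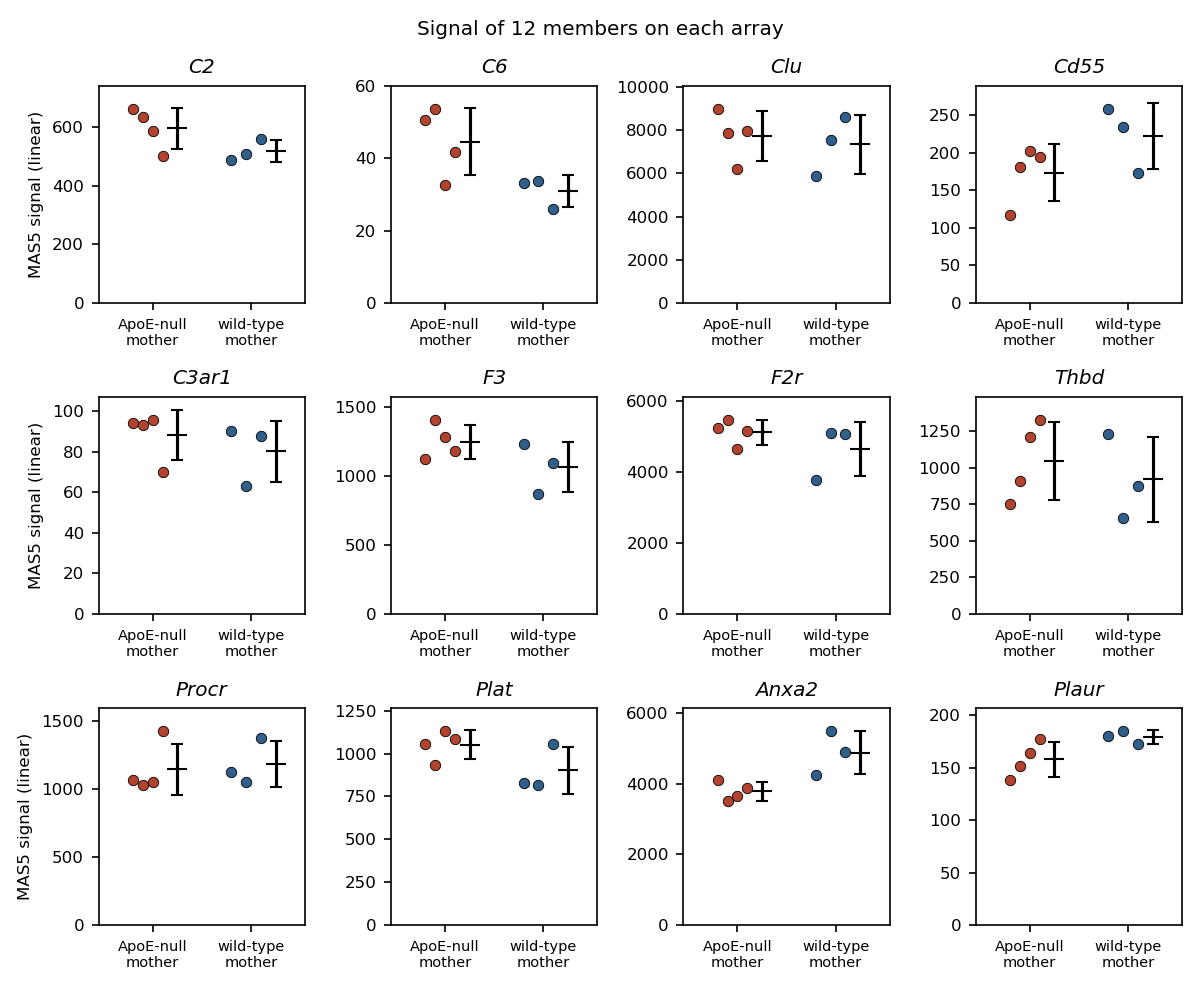
MAS5 signal (linear axis from 0) of 12 genes, with a point for each array (ApoE-null mother, n = 4, and wild-type mother, n = 3) and the mean ± SD beside them. Only Anxa2 has groups that do not overlap, at 3511.8 to 4114.6 with an ApoE-null mother and 4266.7 to 5494.8 with a wild-type mother.

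The coagulation genes with a testable signal were F3, F5 and the thrombin receptor gene F2r, and all 3 had positive differences of 0.09 to 0.24 on the log2 scale, none past the test (limma, adjusted p = 0.707 to 0.954). F3 encodes tissue factor, the cell surface protein that starts coagulation. Its signals were 1121.4, 1402.6, 1282.1 and 1177.3 with an ApoE-null mother and 1227.6, 869.5 and 1096.2 with a wild-type mother. Wild-type mother 2 was the lowest array, and the log2 fold change of 0.24 ran from 0.10, without that array, to 0.35 when each array was left out. F2r, the receptor that thrombin activates on smooth muscle and endothelium, had 5220.0, 5450.3, 4635.8 and 5136.8 with an ApoE-null mother and 3760.1, 5092.5 and 5050.0 with a wild-type mother. Apart from wild-type mother 1, which was lowest, the arrays of both crosses lay together. Means of F2r were 5111 ± 343 with an ApoE-null mother (SD, n = 4) and 4634 ± 757 (SD, n = 3) in the wild-type mother group, and the log2 difference was 0.15, with an interval from -0.14 to 0.45 (limma, adjusted p = 0.781). Without wild-type mother 1 it was 0.0087. F5, the cofactor of factor X in making thrombin, had signals of 61.9 to 118.8 with an ApoE-null mother and 46.8 to 107.4 with a wild-type mother.

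Anticoagulant genes had 5 tested members with log2 fold changes of -0.12 to 0.20. Thbd encodes thrombomodulin, the endothelial receptor that turns thrombin towards protein C. It had signals of 751.0, 906.8, 1213.0 and 1325.5 with an ApoE-null mother and 1232.2, 654.7 and 875.9 with a wild-type mother. High and low arrays occurred in both groups, and the log2 fold change of 0.20 ran from -0.02, without wild-type mother 2, to 0.43 when each array was left out. Procr, the receptor that presents protein C to that complex, had 1066.7, 1034.9, 1053.1 and 1427.1 with an ApoE-null mother and 1127.8, 1051.3 and 1377.7 with a wild-type mother. One array of each cross, ApoE-null mother 4 and wild-type mother 3, stood above the rest. On the log2 scale the difference of Procr was -0.05, with an interval from -0.40 to 0.30 (limma, adjusted p = 0.947).

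Pros1, the cofactor protein S, was among the genes that varied least between arrays, at 605 ± 41.5 with an ApoE-null mother (SD, n = 4) and 570 ± 49.0 with a wild-type mother (SD, n = 3). Tfpi, which inhibits the complex of tissue factor and factor VII, had signals of 144.9 to 247.0 with an ApoE-null mother and 170.3 to 208.2 with a wild-type mother. Its relative Tfpi2, a matrix-bound inhibitor of plasmin and other proteases, averaged 64.4 ± 11.7 with an ApoE-null mother (SD, n = 4) and 69.6 ± 8.41 with a wild-type mother (SD, n = 3). Log2 fold changes of these 3 genes were 0.09, 0.03 and -0.12, with the interval of Tfpi2 reaching to -0.61.

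Of the genes assigned to fibrinolysis, 4 were tested, with 1 positive and 3 negative differences. Anxa2 encodes annexin A2, which gathers plasminogen and tissue-type activator on the cell surface. Its signals were 4114.6, 3511.8, 3661.2 and 3883.6 with an ApoE-null mother and 4266.7, 5494.8 and 4898.2 with a wild-type mother. All 4 ApoE-null mother arrays lay below the lowest wild-type mother array. Means were 3793 ± 263 with an ApoE-null mother (SD, n = 4) and 4887 ± 614 with a wild-type mother (SD, n = 3), a ratio of 0.779 on the log2(signal + 2) scale. Anxa2 differed by -0.36 ± 0.12 (standard error) on the log2 scale, with an interval from -0.63 to -0.09 (limma, unadjusted p = 0.0141). After correction over the 27027 probe sets it was not called (limma, adjusted p = 0.540). Wild-type mother 2 was the highest array, and the log2 difference was -0.27 if it was left out (limma, adjusted p = 0.518), still without overlap.

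S100a10, the gene for the partner protein that binds annexin A2 in a tetramer, had overlapping signals. They were 5883.8, 4509.1, 5254.9 and 5244.0 with an ApoE-null mother and 4976.8, 6315.7 and 5174.2 with a wild-type mother. The log2 difference was -0.07, with an interval from -0.36 to 0.22 (limma, adjusted p = 0.908), or 0.04 if wild-type mother 2 was left out. As for Anxa2, wild-type mother 2 was the highest and ApoE-null mother 2 the lowest array.

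Plat, tissue-type plasminogen activator, had 1056.0, 932.3, 1129.9 and 1082.7 with an ApoE-null mother and 829.0, 818.8 and 1057.1 with a wild-type mother. Wild-type mother 3 lay above 2 of the ApoE-null mother arrays, the other wild-type mother arrays lay below all of them, and the log2 difference was 0.23, with an interval from -0.09 to 0.54 (limma, adjusted p = 0.700). A second probe set of Plat was at -0.20, and the mean of the probe sets at 0.01. Plaur, the receptor of urokinase, had 138.0, 152.2, 164.4 and 177.3 with an ApoE-null mother and 180.8, 184.9 and 172.6 with a wild-type mother. Its overlap came from ApoE-null mother 4, which lay above wild-type mother 3, and the log2 fold change was -0.19 (limma, adjusted p = 0.773). Serpinf1 encodes pigment epithelium-derived factor, a serpin that does not inhibit proteases, and averaged 2726 ± 403 with an ApoE-null mother (SD, n = 4) and 2968 ± 481 with a wild-type mother (SD, n = 3).

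The 7 genes below the filter were C5ar1, F7, F8, F10, Proc, Plau and Plg, and 0 of them exceeded the background ceiling on all 7 arrays. Plg, plasminogen, exceeded it on 0 arrays, with signals of 1.4 to 18.7. F10, the protease that cleaves prothrombin, and Plau, urokinase, exceeded it on 3 arrays each. Proc, which encodes protein C, and F8, the cofactor of factor IX, exceeded it on 4 arrays each, and F7, the partner of tissue factor, on 5. The signals of Proc were 17.0, 8.8, 25.6 and 15.2 with an ApoE-null mother and 2.5, 2.6 and 14.5 with a wild-type mother. In a limma fit without the filter, Proc had an unadjusted p of 0.0359 and an adjusted p of 0.689. Only 1 of 3 wild-type mother arrays lay above the ceiling for Proc, so no fold is given. Of 7 hepatocyte markers 3 lay above the ceiling on all arrays, Cyp2e1 at 1535.4 to 3206.9 being nearly the whole summed signal of 1618.6 to 3341.2, and Apoa1 and Fgb lay at or below it on every array.

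Several genes had more than 1 probe set, and their probe sets did not always point the same way. Of 61 probe sets of the 32 genes, 46 passed the filter. Of these, 0 had an adjusted p under 0.05 in limma and 3 had an unadjusted p under 0.05. Among all probe sets tested 8.25% had an unadjusted p under 0.05, and 8.02% had groups without overlap. For 13 genes 2 or more probe sets were tested. In 9 of the 13 the probe sets had differences of both signs, and in Anxa2, Cfp, F5 and Tfpi they had 1 sign. The second probe set of Anxa2 had a log2 fold change of -0.50 with an interval of -1.47 to 0.47.

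Masp1, the gene of lectin pathway proteases that are made as alternative forms, had the widest disagreement. The probe set with its highest mean signal had a log2 fold change of -0.10. Another had signals of 47.6, 45.0, 47.4 and 39.7 with an ApoE-null mother and 32.6, 22.1 and 13.2 with a wild-type mother, without overlap. This probe set differed by 1.01 ± 0.33 (standard error) on the log2 scale (limma, adjusted p = 0.523). The third tested probe set of Masp1 was at 0.16. A pair of probe sets of C3ar1 also parted from that with the highest signal, at log2 fold changes of 0.52 and -0.34. The first of these had 78.0, 100.5, 73.8 and 88.9 with an ApoE-null mother and 61.9, 49.3 and 65.0 with a wild-type mother, without overlap (limma, adjusted p = 0.579). Cd55 had probe sets at -0.36, 0.20 and 0.32, and C2 had 0.20, -0.01 and -0.31. For these 4 genes the sign of the difference depended on the probe set read.

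**Figure D3:**
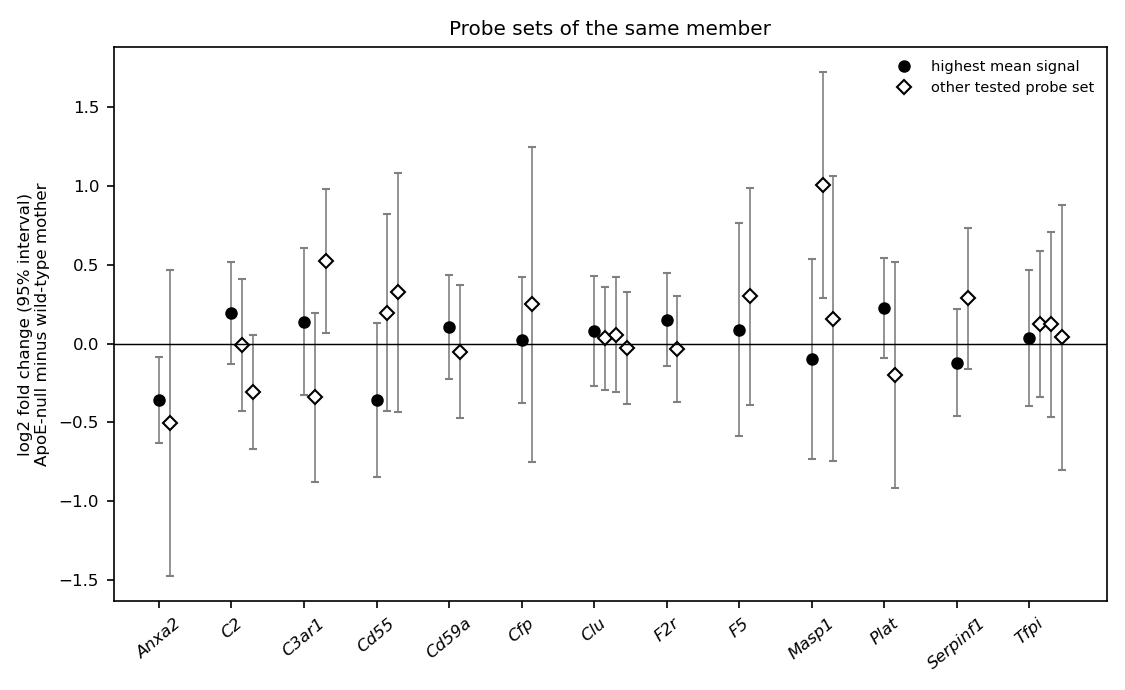
Log2 fold change with its 95% interval for each tested probe set of the 13 genes that had at least 2, ApoE-null mother (n = 4) minus wild-type mother (n = 3). Filled circles are the probe sets with the highest mean signal and open diamonds the others; for Masp1 they run from -0.10 to 1.01 and for C3ar1 from -0.34 to 0.52.

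Across arrays, no cross held all the high or all the low values. Wild-type mother 2 was the lowest array for 9 of 25 genes, more than any other array, where it was lowest for 21.4% of all probe sets. The 9 were C1ra, Cfp, Serping1, Cd59a, C3ar1, F3, Thbd, Pros1 and Plat. That array also had the lowest summed signals of endothelial markers (2900.8, against 2915.0 to 4120.5 on the other arrays) and of macrophage markers, and the highest of skeletal muscle markers. The part of these cells in the 9 low values was not tested. Without wild-type mother 2 the median log2 fold change of the 25 genes was -0.04. The highest array was spread more evenly, with each array highest for 2 to 6 of the 25 genes.

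**Figure D4:**
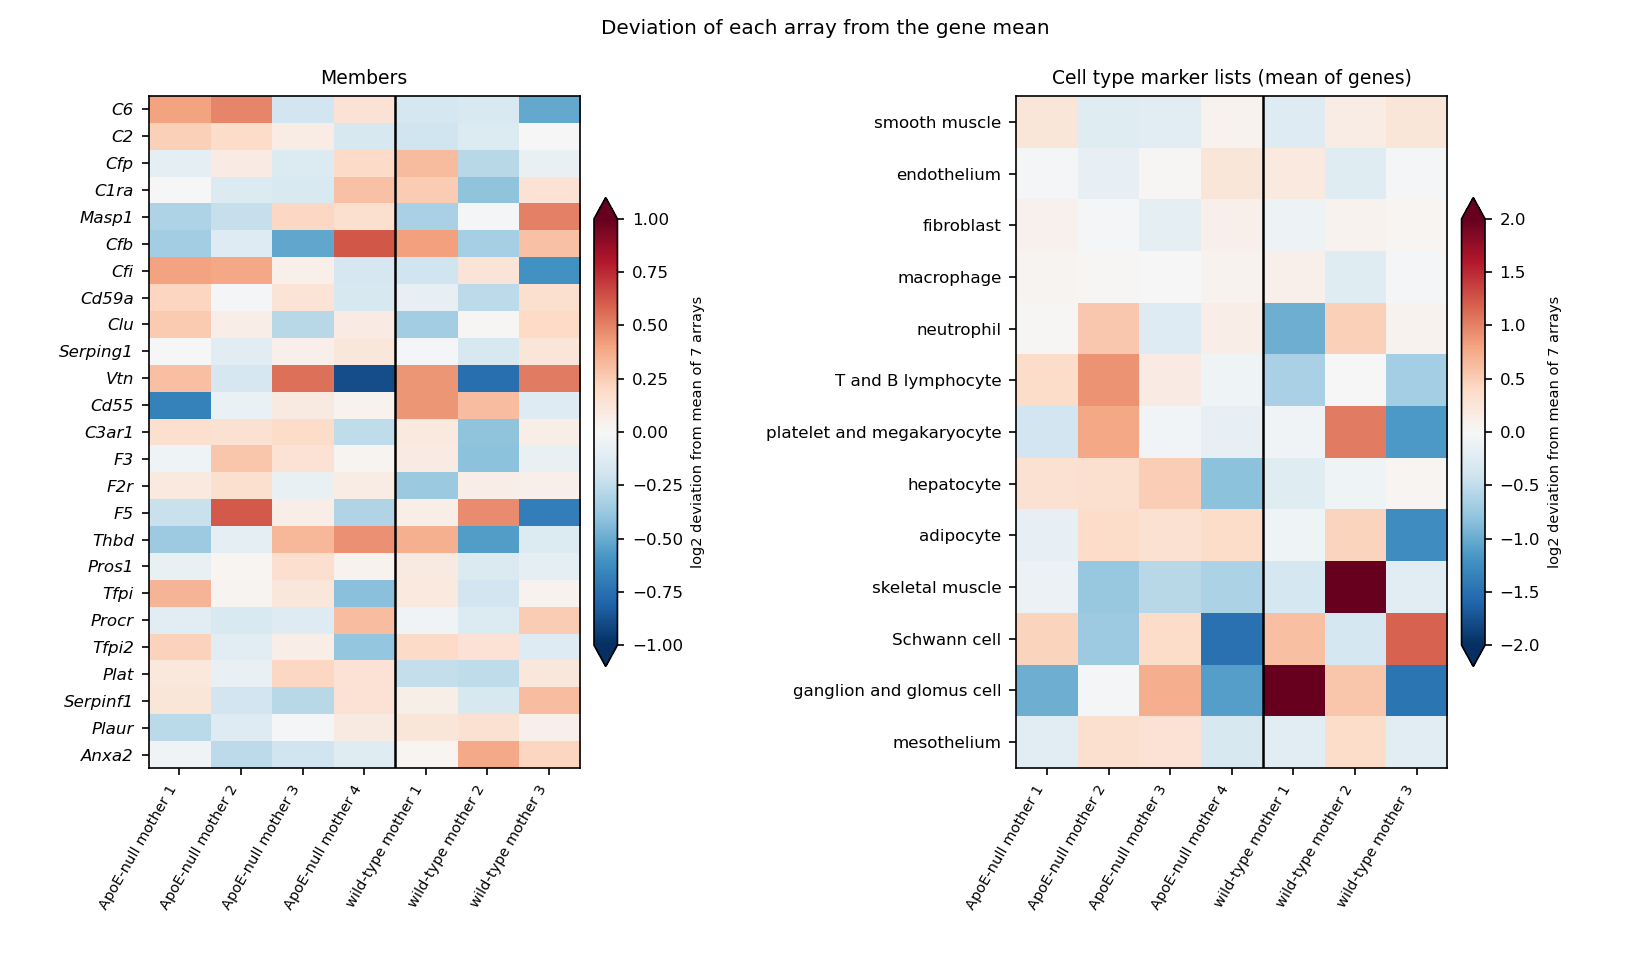
Each cell is the log2 deviation of 1 array from the mean of the 7 arrays, for the 25 tested genes on the left and as the mean over the genes of each marker list on the right, with the ApoE-null mother arrays left of the black line. The array of wild-type mother 2 reached 2.63 for skeletal muscle markers and -0.24 for both endothelial and macrophage markers; colour scales differ between the panels.

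Other genes of the same cascades gave a like picture. A list of 82 further symbols, on which C5 stands beside its mouse symbol Hc, had 70 with a probe set and 39 tested. Of the 39, 0 had an adjusted p under 0.05 in limma. An unadjusted p under 0.05 was found for 1, or 2.56%, against 8.25% of all probe sets. Groups without overlap were also found for 1, or 2.56%, against 8.02% of all probe sets. Differences were positive for 23 and negative for 16, with a median log2 fold change of 0.05. Kng1, which encodes kininogen, the source of bradykinin, had signals of 52.3, 118.2, 131.1 and 74.0 with an ApoE-null mother and 34.3, 60.6 and 13.7 with a wild-type mother. The lowest array of the ApoE-null mother group overlapped with wild-type mother 2. Kng1 differed by 1.45 ± 0.45 (standard error) on the log2 scale (limma, adjusted p = 0.508), by 0.92 if wild-type mother 3 was left out and by 1.92 if wild-type mother 2 was. With the mean of its 2 probe sets Kng1 was at 0.78.

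Lman1, a cargo receptor that carries factors V and VIII out of the endoplasmic reticulum, had groups that did not overlap by a narrow margin. Its signals were 1088.5, 1288.5, 1165.6 and 1283.1 with an ApoE-null mother and 1417.6, 1289.2 and 1424.8 with a wild-type mother. On the log2 scale Lman1 differed by -0.19, with an interval from -0.47 to 0.09 (limma, adjusted p = 0.711). C1qbp, a mitochondrial protein that can bind C1q, had a log2 fold change of 0.11, and Anxa5, the annexin that covers procoagulant phospholipid, of 0.10.

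Subunit genes of C1q, the recognition protein of the classical pathway that macrophages make, were named after their values were seen. C1qa averaged 968 ± 196 with an ApoE-null mother (SD, n = 4) and 1152 ± 287 with a wild-type mother (SD, n = 3), and C1qc 360 ± 50.3 with an ApoE-null mother (SD, n = 4) and 449 ± 88.0 with a wild-type mother (SD, n = 3). C1qb averaged 758 ± 137 with an ApoE-null mother (SD, n = 4) and 587 ± 90.2 with a wild-type mother (SD, n = 3). Log2 fold changes of C1qa, C1qb and C1qc were -0.24, 0.36 and -0.31. The signs of these estimates differed, but each interval included 0, so no direction is settled for any of the 3 subunits. Only the brightest of the 3 probe sets of C1qb was read. If wild-type mother 2 was left out, the log2 fold changes of C1qa, C1qb and C1qc were -0.46, 0.29 and -0.48. Of the 31 further genes below the filter, 12 exceeded the ceiling on no array, among them Fgb, Fgg, F11, F12, F13b, Klkb1, C8a and C4bp, and 19 exceeded it on 1 or more.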

How the data were processed

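RNA from mouse carotid artery was measured on Affymetrix Mouse 430 2.0 arrays. Per the labels' protocols, tissue was frozen at once, and RNA was amplified in 2 cycles from an oligo-dT primer. The authors deposited 1 intensity per probe set on a linear scale. The submitters' processing notes name MAS5 and GCOS without a version. Trimmed means (2% at each end) were 200 on every array, so arrays had been scaled before deposit, and this scaling was kept. Of 45101 probe sets, 34958 had 1 gene symbol, 932 several and 9211 none. Signals were transformed to log2(signal + 2), which understates changes of weak genes. The 64 control probe sets and those with a mean signal at or below the 40th percentile were left out. ApoE-null mother minus wild-type mother was fitted with limma 3.58.1 (lmFit, eBayes with an intensity trend) in R 4.3.3, with Benjamini-Hochberg adjustment over 27027 probe sets and a threshold of 0.05. Steps were tested on simulated data. The number of arrays limits the precision.

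The genes and lists were chosen with earlier results of these data known. Values on all arrays are given for genes with an unadjusted p under 0.05, groups without overlap or the highest signal of their role, and for others by choice after their values were seen. Of the other cascade genes, those with such a p or without overlap, and the highest signal of each list, were named. No sequence coordinates were used. The alternatives were a pseudocount of 16, no filter, quantile normalization, no intensity trend, the mean over all probe sets of a gene, and leaving out each array.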

Additional observations from a re-analysis of the deposited data

Results flagged for a closer look

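Among the 27 genes examined for an array far from the others of the ApoE-null mother group, 2 had one, where chance gives about 1 in 20. ApoE-null mother 4 was the array in both. C3ar1 had a signal of 70.0 there, against 93.4 to 95.6 on the other 3 arrays of the group, a gap of 0.925 of the range on the log2 scale. Procr had a signal of 1427.1 there, against 1034.9 to 1066.7, a gap of 0.906 of the range. Both gaps exceed Dixon's critical value at the 95% level for 4 samples.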

How the results depend on the processing

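No gene of the set and no other cascade gene passed the adjusted threshold under any of the 12 alternatives in limma, and the smallest adjusted p of a gene of the set was 0.365, for Anxa2 without wild-type mother 1. The log2 fold change of Anxa2 was -0.45 to -0.27 when each array was left out, and -0.41 with the mean of its probe sets, where its interval included 0. Without the filter the counts below cover 32 genes of the set and 70 other cascade genes, in place of 25 and 39. Of the set, the count at an unadjusted p under 0.05 was 1, against 0 with the mean of all probe sets, 2 without the filter, 2 without an intensity trend and 1 to 2 when each array was left out. The count without overlap was 1, against 2 without the filter and 1 to 4 when each array was left out, being 4 without ApoE-null mother 4 or wild-type mother 3, 3 without ApoE-null mother 3 or wild-type mother 1, and 2 if wild-type mother 2 was left out; with fewer arrays in a group, fewer can overlap. For the other cascade genes, the count at an unadjusted p under 0.05 was 1, against 2 with the mean of all probe sets, 5 without the filter and 1 to 7 when each array was left out, being 7 if wild-type mother 2 was left out, 5 for wild-type mother 1, and 2 for ApoE-null mother 1, 3 or 4 or wild-type mother 3. Shares over all probe sets under these alternatives are not given here, so a change in a count is not read as a result about these genes. The median log2 fold change of the set was -0.04 to 0.10 when each array was left out. Signs turned in 25 of 324 alternative values, in 14 of 27 genes, all uncalled, and the cause was not tested. With the mean of all probe sets C2 was -0.040, Masp1 0.49, Cd55 0.054 and Serpinf1 0.082, and with a pseudocount of 16 C1ra was -0.00021. When each array was left out, C1ra ran from -0.20 to 0.13, Masp1 from -0.29 to 0.13, Cfp from -0.11 to 0.19, Serping1 from -0.040 to 0.10, Clu from -0.069 to 0.20, Vtn from -0.53 to 0.16, C3ar1 from -0.021 to 0.24, F5 from -0.23 to 0.35, Thbd from -0.022 to 0.43, Procr from -0.16 to 0.060 and Tfpi from -0.074 to 0.18. No paired analysis was possible because the labels number the arrays in 1 sequence and the crosses share no number. In that sequence all wild-type mother arrays come before the ApoE-null mother arrays. If the numbers follow the order of processing, that order and the cross cannot be told apart.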
